A study of Mus musculus with 8 samples.

Results

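Chromatin modifiers, chromatin remodelers and histone genes were followed in a mouse cardiac endothelial cell line (MCEC) with and without *Hdac3*, the gene for a histone deacetylase. Members were the protein-coding genes of the deposited expression table whose symbols belong to families of histones, histone lysine and arginine methyltransferases, demethylases, acetyltransferases, sirtuins, bromodomain, chromobox, PHD finger and ING proteins, CHD, SWI/SNF and ARID remodelers, Polycomb subunits, DNA methyltransferases and TET enzymes. The rule found 115 of the 8278 genes in the table, in 15 classes, by symbol alone, although the table itself lists only genes past the authors' test. Bulk RNA-Seq had been run on 4 libraries of MCECs transduced with an empty vector lentivirus (EV) and 4 libraries of *Hdac3* knockout (KO) MCECs, in which a lentivirus carried Cas9 and an *Hdac3* guide RNA. Both groups are the same established line carrying a stably integrated lentiviral vector. Whether the KO cells were a clone or a pool, and whether the 4 libraries of a group came from separate cultures, is not given for these libraries in the sources used here, although the study describes technical replicates as usual for its in vitro work, so p-values measure the spread between these samples, which may be technical.

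Histones package DNA into nucleosomes, and enzymes add or remove acetyl and methyl groups on their tails, which other proteins read through bromodomains, chromodomains and PHD fingers. Remodelers use ATP to slide, evict or exchange nucleosomes, and Polycomb complexes hold genes silent through methylation of histone H3 and ubiquitination of histone H2A. HDAC3 removes acetyl groups from histones within the NCoR and SMRT corepressor complexes, so it works against the acetyltransferases among these genes. Core and linker histones are mostly made from clustered, intronless genes that are switched on in S phase, while the variant histones come from single genes used throughout the cell cycle.

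The libraries held 15775327 to 22255684 reads, as the deposited counts and FPKM values imply, and 84.3% to 85.9% of those fell on the genes listed in the table. *Hdac3* itself counted 1934, 2067, 2055 and 2137 normalized reads in the EV libraries and 1551, 1458, 1489 and 1524 in the KO libraries, a log2 fold change of -0.45 ± 0.04 (edgeR quasi-likelihood test, Benjamini-Hochberg adjusted p = 1.0e-13). A value after ± is the standard error of a log2 fold change, or the standard deviation over 4 libraries of a count, a level or a share. Cas9 editing need not remove a transcript, so this value lies in the direction of the labels and does not measure the protein. Of 13 endothelial markers 6 were listed: *Pecam1* averaged 0.516 normalized counts in EV libraries and 3.97 in KO libraries, *Kdr* 43.4 and 19.3, and *Eng* 1436 and 1285. *Flt1* averaged 345 in EV and 290 in KO libraries, *Tek* 67.8 and 25.5, and *Egfl7* 80.4 and 58.3. Of these 6 markers *Pecam1* alone rose and 5 fell. Of 8 fibroblast markers 4 were listed, among them *Col3a1* at 77274 and 64701 counts, *Col1a1* at 41392 and 48590.2 and *Dcn* at 12371 and 5333, and 1 of the 4 rose and 3 fell. In this line, labelled endothelial, *Pecam1* was thus near 0 and the listed collagens were abundant, while *Eng* and *Flt1* were read at 1436 and 345 counts in EV libraries. Markers that are not listed may be unchanged or not expressed, so their levels are not known. The summed level of the listed markers was 26.2 to 28.3 FPKM (reads scaled by gene length and library size) in EV libraries and 20.9 to 22.4 in KO libraries for the endothelial list, 1451 to 1491 and 1109 to 1131 for the fibroblast list, and 29.5 to 35.6 and 5.74 to 7.16 for the 3 listed of 6 smooth muscle and pericyte markers. Of 6 leukocyte markers *Cd68* alone was listed, at 131 and 301 counts, and none of 7 cardiomyocyte markers was. The part of these markers in the results that follow was not tested.

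At an adjusted p under 0.01, 59 of the 115 members were higher and 54 lower in the *Hdac3* KO MCECs, and *Kmt2c* and *Phf3* did not pass. Every one of the 8278 genes in the table has an adjusted p under 0.05 in the authors' own comparison, so nearly any listed gene passes. The background was accordingly 47.1% of all genes higher and 49.6% lower, and the members' split lies close to it. The median log2 fold change of the members was 0.14 against 0.06 for all genes, and the median size of the change was 0.38 against 0.40. Normalized counts of the 2 groups did not overlap for 101 of the 115 members, with 91.1% of all genes doing the same. A log2 fold change of at least 1 was passed by 8 members, 7 of them replication-dependent histones, where the background was 4.43% of genes, and a fold change of -1 or less by 4, where it was 8.36%. Of those 8 members, 7 had means under 100 normalized counts in both groups, where a gene must change more to be listed. With library totals as the scale in place of TMM, 39 members were higher and 54 lower, beside 32.3% and 49.8% of all genes, since that scale lowers the median of all genes by 0.12. The members that lose their call there are named with their class. Without EV replicate 3, 5 members passed a log2 fold change of at least 1 and 2 passed -1 or less, and 2 passed the latter without *Hdac3* KO replicate 3.

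The replication-dependent histones had the largest median change of the 15 classes. Of the 14 listed, 11 rose and 3 fell where the background was 47.1% and 49.6%, and 10 rose and 3 fell without TMM where it was 32.3% and 49.8%. The class median was 0.99. As the table lists only genes past the authors' test, a gene with few reads must change more to be listed. The 13 members under 100 normalized counts in both groups, most of them histone genes, had a median of 1.20, with 11 higher and 2 lower. How far this sets the class median was not tested, and histone genes that are not listed are not seen here. The listed histone genes lie, 12 of them, in the large histone cluster of chromosome 13, between positions 21717659 and 23745501 (mm10), and 2 on chromosome 3. Promoters of 11 of them could be matched to RefSeq windows (GRCm38.p6, from 250 bases before to 50 after the transcript start), and those of *Hist1h2bc*, *Hist2h2be* and *Hist1h3f* were not. The windows shown are those of a linker histone gene that fell, *Hist1h1c*, of the linker histone gene that rose, *Hist1h1e*, of 3 core histone genes that rose, and of the divergent *Hist2h2ac* and *Hist2h2be* pair. Each of the first 5 runs from 150 bases before the RefSeq start through the first 30 transcribed bases, read on the coding strand 5′ to 3′. Capitals mark the letters CCAAT, or ATTGG where they lie on the other strand, and the letters TATAAA, or TTTATA where they lie on the other strand.
*Hist1h1c* (chr13:23738657-23738836, plus strand): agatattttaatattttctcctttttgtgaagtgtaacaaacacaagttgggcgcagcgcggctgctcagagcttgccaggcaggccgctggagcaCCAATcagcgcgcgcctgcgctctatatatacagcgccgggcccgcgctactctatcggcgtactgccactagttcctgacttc
*Hist1h1e* (chr13:23622529-23622708, minus strand): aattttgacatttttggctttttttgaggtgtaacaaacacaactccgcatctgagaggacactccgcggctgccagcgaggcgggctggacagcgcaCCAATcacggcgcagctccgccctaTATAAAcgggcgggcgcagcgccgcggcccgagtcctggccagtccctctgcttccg
*Hist1h4d* (chr13:23581418-23581597, plus strand): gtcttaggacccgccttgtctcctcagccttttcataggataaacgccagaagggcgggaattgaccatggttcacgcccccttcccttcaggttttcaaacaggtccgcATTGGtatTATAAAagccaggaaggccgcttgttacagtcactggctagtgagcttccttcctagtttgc
*Hist1h2an* (chr13:21787219-21787398, minus strand): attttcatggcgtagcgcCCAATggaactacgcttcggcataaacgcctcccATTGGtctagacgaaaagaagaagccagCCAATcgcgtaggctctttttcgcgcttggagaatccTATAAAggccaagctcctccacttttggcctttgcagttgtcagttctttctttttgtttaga
*Hist1h3h* (chr13:21717478-21717657, plus strand): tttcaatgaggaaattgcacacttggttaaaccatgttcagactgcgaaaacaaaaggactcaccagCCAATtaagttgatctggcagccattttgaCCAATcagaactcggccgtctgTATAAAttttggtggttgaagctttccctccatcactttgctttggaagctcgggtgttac
*Hist2h2ac*, whole window (chr3:96220831-96221130, minus strand): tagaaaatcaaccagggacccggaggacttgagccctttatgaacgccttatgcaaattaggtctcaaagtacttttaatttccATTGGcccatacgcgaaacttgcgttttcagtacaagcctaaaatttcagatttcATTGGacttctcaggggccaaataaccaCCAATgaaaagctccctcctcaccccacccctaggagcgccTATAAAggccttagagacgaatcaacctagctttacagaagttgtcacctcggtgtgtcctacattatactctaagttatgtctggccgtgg

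All 11 matched histone windows held CCAAT on either strand, compared with 37.9% of the windows of 27025 genes and 36.8% of those of the 87 other matched members. TATAAA was in 8 of the 11 windows, compared with 14.2% of all genes and 3.45% of the other members. It began 27 to 42 bases before the start in 5 of the 8, and elsewhere in *Hist1h3i* (147 bases before), *Hist1h2bk* (198 before, on the other strand) and *Hist1h2ak* (21 after). The CCAAT nearest the start begins 54 bases before it in *Hist1h1c* and 52 bases before it in *Hist1h1e*. For all genes the first window of each was taken, and for members the one nearest the start in the table, so the shares are not fully alike. Among the other members that window lay up to 92366 bases from this start (*Phf21a*). Over all windows of all genes the shares were 37.4% for CCAAT and 13.6% for TATAAA. The match of letters is a description of these windows and no measure of a factor at them.

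The pair on chromosome 3 is transcribed in opposite directions with 238 bases between the gene starts, and its genes changed in opposite directions. *Hist2h2ac* (chr3:96220361-96220880), for a histone H2A, counted 14.2, 8.84, 2.08 and 1.77 in EV libraries and 11.5, 20.9, 12.2 and 13.1 in KO libraries. The groups overlap, and the log2 fold change of 1.20 ± 0.42 had an adjusted p of 0.0078 with edgeR, which rose above 0.01 without TMM, without EV replicate 3 and in other alternatives. Leaving out 1 library moved it from 0.83 (without EV replicate 4) to 1.83 (without EV replicate 1). *Hist2h2be* (chr3:96221119-96223738), for a histone H2B, counted 69.7, 70.7, 72.8 and 68.0 in EV libraries and 48.2, 49.2, 36.6 and 50.4 in KO libraries, every KO library below every EV library (log2 fold change -0.61 ± 0.15, edgeR adjusted p = 0.00038).

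The linker histones H1, which bind the DNA between nucleosomes, also divided. *Hist1h1e* (chr13:23621755-23622502) had normalized counts of 56.7, 45.3, 40.6 and 53.0 in EV libraries and 102, 113, 109 and 81.2 in KO libraries. *Hist1h1c* (chr13:23738808-23740367) had 209, 239.9, 208 and 238 in EV and 149.8, 141, 127 and 127 in KO libraries. The log2 fold changes were 1.05 ± 0.15 and -0.72 ± 0.09 (edgeR adjusted p = 6.2e-08 and 9.2e-09), and neither gene's groups overlapped. *Hist1h2bc*, for another histone H2B, fell from 124 ± 14.9 to 68.3 ± 2.26 normalized counts (n = 4 each, log2 fold change -0.85, edgeR adjusted p = 1.2e-07).

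The remaining histone genes that rose encode core histones and were rarely read. *Hist1h2bk*, with the highest fold change of all members, counted 2.36, 6.63, 5.20 and 2.65 in EV libraries and 8.38, 20.9, 15.9 and 16.8 in KO libraries (log2 fold change 1.89 ± 0.41, edgeR adjusted p = 7.2e-05). *Hist1h3f* counted 5.91, 8.84, 7.28 and 7.95 in EV and 25.1, 35.5, 23.4 and 21.5 in KO libraries (log2 fold change 1.79 ± 0.30). *Hist1h4d*, the only histone H4 gene listed, counted 8.27, 11.1, 8.32 and 7.95 in EV and 18.9, 32.8, 22.5 and 19.6 in KO libraries (log2 fold change 1.40 ± 0.30). In these 3 genes every KO library lay above every EV library. The other 7 were *Hist1h2an* at 1.77, *Hist1h2ak* at 1.20, *Hist2h2ac* at 1.20, *Hist1h3i* at 0.94, *Hist1h3h* at 0.88, *Hist1h3c* at 0.84 and *Hist1h3e* at 0.84, and *Hist1h3e* overlapped between groups as *Hist2h2ac* did. Without EV replicate 3 *Hist1h3e* had 0.63 and did not pass (edgeR adjusted p = 0.016).

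Summed over the 11 genes that rose, normalized counts were 177, 169, 122.7 and 169 in the EV libraries and 316, 379.7, 353 and 333 in the KO libraries. Summed over the 3 that fell they were 421, 438, 387 and 426 in EV libraries and 268, 260.4, 229 and 245 in KO libraries. The genes were divided by their own direction, which fixes how these sums differ. Single genes of the first group had 2 to 60 raw reads in an EV library and 8 to 124 in a KO library, and those of the second 59 to 270 and 39 to 155. The 3 genes that fell have transcripts of 736 to 2620 bases in the table and levels of 1.43 to 8.99 FPKM in EV libraries, whereas the 11 that rose have 393 to 848 bases and 0.472 to 3.49 FPKM. Transcripts of these genes normally end in a stem-loop without a poly(A) tail, and how RNA was selected for the libraries is not given in the sources used here, so what share of histone messenger RNA was captured cannot be told. Near-identical copies add to the doubt: 93.9% of the 50-base stretches of *Hist1h3h*, 85.8% of *Hist1h2an* and 74.2% of *Hist1h2bk* also occur in transcripts of other genes, against 8.54% for *Hist1h1c* and 10.2% for *Hist1h4d*, so values of single core histone genes are uncertain. *Hist1h1e* is uncertain too, as 25.7% of its exonic bases are also annotated to *Hist1h2be* on the same strand and 32.0% of its 50-base stretches occur in transcripts of other genes.

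**Figure D1:**
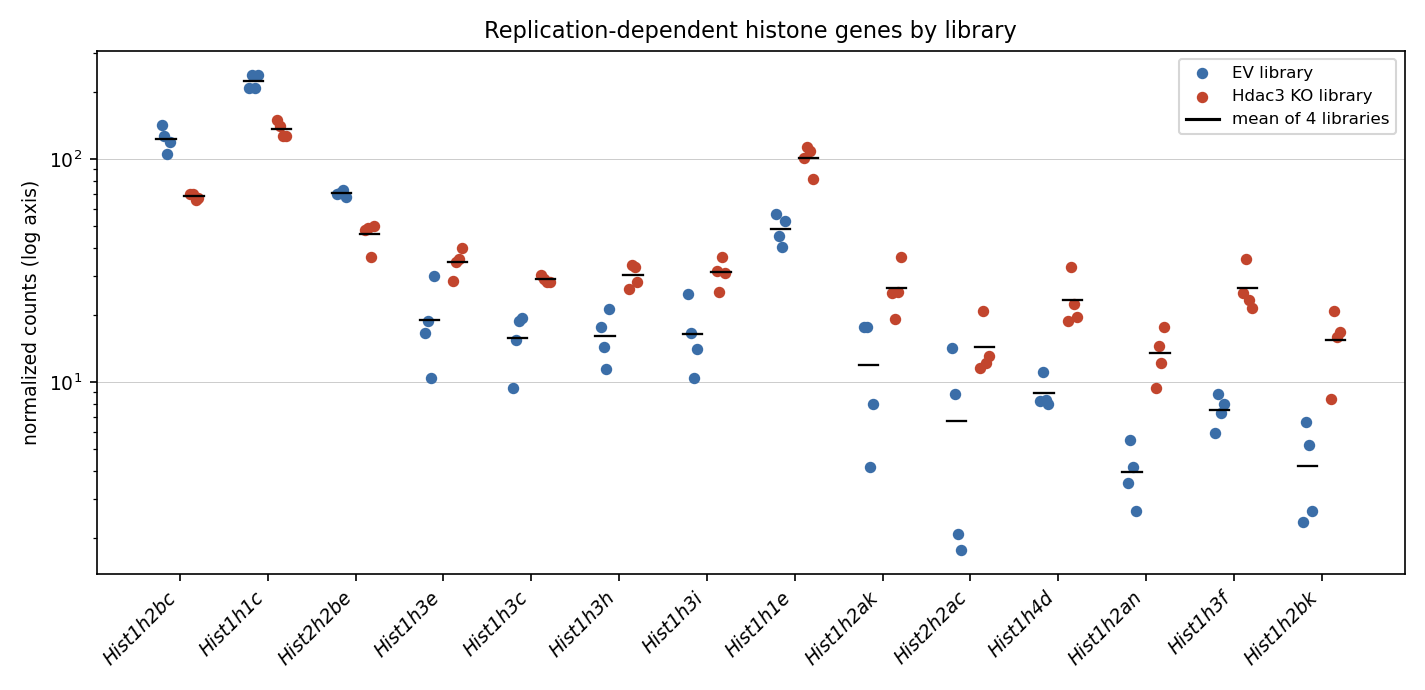
Normalized counts (log axis) of the 14 replication-dependent histone genes, ordered by fold change, in each of the 4 EV and 4 *Hdac3* KO libraries, with black bars for the means. *Hist1h2bc*, *Hist1h1c* and *Hist2h2be* on the left are lower in every KO library, and the genes on the right, of which *Hist1h3e* and *Hist2h2ac* overlap between groups, have means of 3.97 to 48.9 in EV libraries.

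Genes that handle new histones or are used in S phase were given by lists chosen with earlier results of these data known. *Slbp*, whose product binds the stem-loop of histone messenger RNA, rose with a log2 fold change of 0.48 (edgeR adjusted p = 4.2e-16). Of 19 genes that are histone chaperones or *Slbp* itself 13 were listed, 12 rose (11 without TMM) and *Cabin1* fell, with a median of 0.41, and the level summed over them was 1543 to 1588 FPKM in EV libraries and 2026 to 2113 in KO libraries. Of 41 genes used in S phase, most of them for DNA replication and *Slbp* again among them, 33 were listed, of which 24 rose, 4 fell and 5 did not pass (17, 4 and 12 without TMM), with a median of 0.23 beside the 0.06 of all genes. Of all genes 47.1% rose, and 32.3% without TMM. The lists share 4 genes. Their part in the histone changes was not tested.

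Variant histone genes had levels of 9.37 to 585 FPKM in EV libraries, the lowest that of *H2afy2*, which lies close to the 8.99 FPKM of *Hist1h2bc*. *H2afz*, for H2A.Z, had the highest level of all members, 585 ± 8.10 FPKM in EV libraries, followed by *H3f3b*, for the replication-independent histone H3.3, at 279.9 ± 4.88 FPKM. Of 6 variant genes 4 rose and 2 fell with TMM, beside 47.1% and 49.6% of all genes, and 1 rose and 2 fell without it, beside 32.3% and 49.8%. *H2afy2*, for macroH2A2, counted 386, 366, 395 and 377 in EV libraries and 211, 185, 199 and 202 in KO libraries (log2 fold change -0.94 ± 0.07, edgeR adjusted p = 3.6e-14). Its partner *H2afy*, for macroH2A1, counted 1533, 1495, 1609 and 1581 in EV and 1795, 1696, 1700.1 and 1777 in KO libraries (log2 fold change 0.16 ± 0.03, no longer past the cutoff without TMM). MacroH2A carries a large extra domain and is found on silent chromatin, and the share of *H2afy* in the summed FPKM of both genes, which no scaling can alter, went from 68.8% ± 0.484 to 82.6% ± 0.483.

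Both genes for H2A.Z were listed. *H2afv* fell from 2012 ± 109.8 to 1532 ± 48.1 normalized counts (log2 fold change -0.39), while *H2afz* had 0.12 ± 0.02 with TMM and -0.00105 without it, so its direction rests on the scale. *H2afx*, for the variant marked at DNA breaks, had 0.17, which did not pass without TMM, and *H3f3b* had 0.23, which did.

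Lysine demethylases were mostly lower: 10 of 13 fell and 3 rose, where the background was 49.6% and 47.1%, and without TMM 10 fell and 2 rose. *Kdm7a* (chr6:39136623-39206789), which acts on repressive marks of histone H3, fell most, from 170.1, 129, 151 and 131 normalized counts in EV libraries to 62.8, 83.8, 74.98 and 77.5 in KO libraries (log2 fold change -0.94 ± 0.12, edgeR adjusted p = 1.3e-08). *Kdm2b*, which binds unmethylated CpG islands, followed at -0.45. Then came *Kdm4c* at -0.38, *Kdm4b* at -0.38, *Kdm3b* at -0.36, *Kdm6a* at -0.30, *Kdm5b* at -0.26, *Kdm1b* at -0.25, *Kdm3a* at -0.24 and *Kdm5a* at -0.18. All 13 had groups that did not overlap, as had 91.1% of all genes.

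The 3 demethylases that rose each have a paralog that fell. *Kdm6b* and *Kdm6a* remove methyl groups from H3 lysine marks set by Polycomb complexes. *Kdm6b* counted 986, 1034, 993 and 1000.2 in EV libraries and 1265, 1338, 1219 and 1259.9 in KO libraries, and *Kdm6a* 579, 516, 524 and 499.7 in EV and 397, 428, 473 and 419 in KO libraries. The share of *Kdm6b* in their summed FPKM was 62.8% ± 1.78 in EV libraries and 72.5% ± 1.96 in KO libraries, with no overlap. *Kdm4a*, with *Kdm4b* and *Kdm4c* an eraser of methylation linked to heterochromatin, had a log2 fold change of 0.26 and its share of the 3 genes went from 52.5% ± 1.28 to 63.2% ± 1.16. *Kdm5c*, of the enzymes that erase methylation at promoters, had 0.14, which did not pass without TMM, beside a share that went from 55.3% ± 0.643 to 60.9% ± 0.788 of *Kdm5a*, *Kdm5b* and *Kdm5c*. *Phf8* and *Phf2*, demethylases of the KDM7 family that are classed here with PHD finger proteins, had log2 fold changes of -0.35 and -0.17.

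Polycomb repressive complex 2 (PRC2) methylates histone H3 through EZH2, held by the scaffold SUZ12 and EED. The core genes all rose, where 47.1% of all genes did, and 32.3% without TMM. With *Jarid2* the class had 3 genes higher and 1 lower on either scale. *Ezh2* counted 1538, 1482, 1458 and 1435 in EV libraries and 2094, 1966, 2117 and 1978 in KO libraries, *Eed* 678, 661, 729 and 623 in EV and 958, 921, 915 and 930.4 in KO libraries, and *Suz12* 2663, 2636, 2467 and 2470.1 in EV and 3212, 3252, 3116 and 3310.2 in KO libraries. Their log2 fold changes were 0.46 ± 0.04, 0.47 ± 0.05 and 0.33 ± 0.03. *Ezh1*, the paralog of *Ezh2*, is not listed. Accessory genes did not share a direction. *Jarid2*, which helps PRC2 to its targets, counted 224, 247, 211 and 203 in EV and 161, 153, 127 and 137 in KO libraries (log2 fold change -0.61 ± 0.09, edgeR adjusted p = 3.9e-07). *Phf1* and *Phf19*, Polycomb-like readers of histone H3, had -0.45 and -0.20. Their relative *Mtf2* and the accessory gene *Aebp2*, which are no members, had 0.15 and 0.10 (edgeR adjusted p = 0.0017 and 0.0030), and without TMM 0.04 and -0.01, neither of which passed (adjusted p = 0.43 and 0.66). For *Phf1*, 39.3% of exonic bases are also covered by *Cuta* on the other strand in GENCODE M21, and whether the reads keep strand is not given in the sources used here.

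Of the 8 chromobox genes and Polycomb associates 4 rose and 4 fell with TMM, close to the 47.1% and 49.6% of all genes. Without TMM 2 rose and 4 fell, beside 32.3% and 49.8% of all genes. Within this class the 2 branches of chromobox genes differed in direction, a difference that was not tested. Those of heterochromatin protein 1 (HP1), which bind methylated H3 in heterochromatin, all rose: *Cbx3* from 3259 ± 37.3 to 4558 ± 126 normalized counts, *Cbx5* from 9884 ± 309 to 12278 ± 327 and *Cbx1* from 2201 ± 96.2 to 2511 ± 100.1, although *Cbx1*, at 0.19, did not pass without TMM. Those of Polycomb repressive complex 1 (PRC1) that are listed both fell. *Cbx6* counted 6121, 6363, 6283 and 6372 in EV libraries and 4264, 4255, 4229.7 and 4269.6 in KO libraries (log2 fold change -0.56 ± 0.03, edgeR adjusted p = 4.0e-20), and *Cbx7* had -0.39. *Cbx2* and *Cbx8* are not listed. The PRC1-associated *Scmh1* fell by 0.50 on the log2 scale. *Scml2* had 4.73, 9.95, 7.28 and 2.65 in EV libraries and 17.8, 5.46, 13.1 and 20.5 in KO libraries, so its log2 fold change of 1.22 ± 0.42 comes from overlapping groups and passed in edgeR at 0.0063 but not in DESeq2 or without TMM.

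Of 13 lysine methyltransferases 8 rose and 4 fell with TMM, beside 47.1% and 49.6% of all genes, but without TMM 3 rose and 4 fell, beside 32.3% and 49.8%. *Setd8*, which places the single methyl group on histone H4 that is tied to the cell cycle, counted 3301, 3461, 3263 and 3227 in EV libraries and 5168, 5397, 5278 and 5104 in KO libraries (log2 fold change 0.66 ± 0.03, edgeR adjusted p = 7.1e-21). *Setd5*, whose product associates with the NCoR and HDAC3 complex, counted 3433, 3301, 3247 and 3365 in EV and 4944, 5165, 4726 and 4941 in KO libraries (log2 fold change 0.57 ± 0.03). *Setd1a* and *Setd1b*, catalytic subunits of COMPASS complexes that methylate H3 at promoters, had 0.36 and -0.25, and the share of *Setd1a* went from 55.2% ± 1.62 to 65.4% ± 1.52 at nearly the same summed level, 9.27 and 9.26 FPKM. A transcript annotated under another name on the same strand covers 51.8% of the exonic bases of *Setd1a*, so its value is uncertain.

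*Ehmt2* (G9a), which writes repressive methylation on histone H3, fell from 5033 ± 187 to 4206 ± 130.2 normalized counts (log2 fold change -0.26), and *Setd7* and *Kmt2e* had -0.20 and -0.13. *Kmt2a*, *Kmt2d* and *Setd2* had 0.22, 0.26 and 0.20 and none of them passed without TMM, nor did *Setd3* and *Setd6* at 0.17 and 0.21. *Kmt2c* was at 0.15 ± 0.05 with an edgeR adjusted p of 0.011. Other genes that act on H3K9 and heterochromatin, given as a list of 14 of which 8 are in the table, all rose (7 of 8 without TMM), where 47.1% of all genes did (32.3% without TMM), led by *Suv39h2* at 0.87.

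Of the 4 arginine methyltransferases 3 rose on either scale, beside 47.1% of all genes with TMM and 32.3% without. *Prmt1*, the main source of asymmetric dimethylarginine, counted 3104, 3319.7, 3345 and 3241 in EV libraries and 4060.4, 4055, 3976 and 4093 in KO libraries. *Prmt5*, which makes the symmetric form, counted 1075, 1189, 1135 and 1141 in EV and 1621, 1537, 1465 and 1561 in KO libraries, and *Prmt7*, which adds 1 methyl group, 845, 927, 899.5 and 885 in EV and 1201, 1258, 1214 and 1262 in KO libraries. Their log2 fold changes were 0.31 ± 0.03, 0.44 ± 0.04 and 0.47 ± 0.04, and *Prmt10* had -0.30 ± 0.07.

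Acetyltransferases, the enzymes opposed by HDAC3, had 3 members higher and 2 lower, beside 47.1% and 49.6% of all genes, and 1 higher and 2 lower without TMM (32.3% and 49.8%). The closest pair moved apart: *Kat2a* (GCN5) counted 1702, 1625, 1635 and 1640.3 in EV libraries and 2257, 2240.1, 2191 and 2193 in KO libraries, and *Kat2b* (PCAF) 1596, 1558, 1519 and 1513 in EV and 1133, 1146, 1133 and 1143 in KO libraries. These are alternative catalytic subunits of the SAGA and ATAC complexes. Their log2 fold changes were 0.43 ± 0.03 and -0.44 ± 0.04 (edgeR adjusted p = 2.5e-14 and 2.2e-13). The summed FPKM was 44.8 in EV libraries and 45.5 in KO libraries, and *Kat2a* made up 59.8% to 60.7% of it in EV libraries and 73.2% to 73.9% in KO libraries. *Kat6b* fell from 549 ± 21.3 to 350.1 ± 23.4 normalized counts (log2 fold change -0.65), while *Crebbp* (CBP) and *Kat7* (HBO1) had 0.22 and 0.16, which did not pass without TMM. *Ep300* is not listed. Among sirtuins, NAD-dependent deacetylases, *Sirt2* fell by 0.23 on the log2 scale, and *Sirt7* had 0.18 with overlapping groups and did not pass without TMM.

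Bromodomain proteins read acetylated lysines. *Brd2* (chr17:34112023-34122634), for a protein that binds acetylated histones and recruits the transcription machinery, counted 5893, 5986, 6058 and 5824 in EV libraries and 9649, 9999, 9503 and 9389 in KO libraries (log2 fold change 0.70 ± 0.03). Its edgeR adjusted p of 1.3e-22 was the smallest of all members with TMM. Without TMM *Cbx6* had a smaller edgeR adjusted p, 2.4e-22 beside 5.4e-20 for *Brd2*. *Brd8* and *Brd7*, subunits of the TIP60 and PBAF complexes, had -0.23 and -0.17, and *Brd1* had 0.10 with TMM and -0.013 without it.

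**Figure D2:**
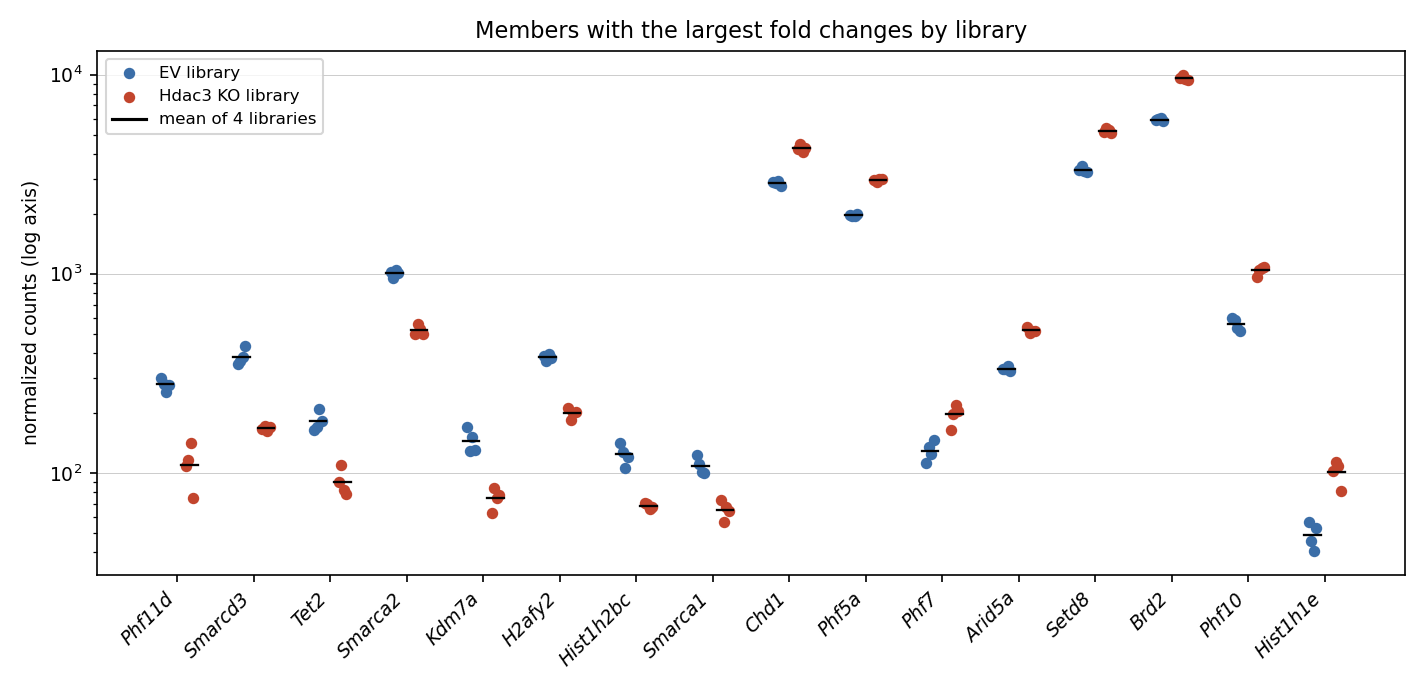
Normalized counts (log axis) in each of the 4 EV and 4 *Hdac3* KO libraries for the 8 members with the lowest and the 8 with the highest log2 fold changes among those past the cutoff, without overlap, whose higher group averaged 100 normalized counts or more, and black bars for means. They run from *Phf11d* at -1.34 to *Hist1h1e* at 1.05.

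SWI/SNF-related remodelers had 6 members lower and 3 higher of 9 (all genes, 49.6% and 47.1%), and 6 lower and 2 higher without TMM (49.8% and 32.3%). *Smarcd3* (ENSMUSG00000028949, chr5:24590818-24602012), for the BAF60C subunit known from heart and muscle development, counted 353, 363, 381 and 433 in EV libraries and 165, 172, 162 and 171 in KO libraries (log2 fold change -1.20 ± 0.08, edgeR adjusted p = 7.8e-16). In GENCODE M21 48.2% of its exonic bases lie under *Chpf2* on the other strand, which the counting may not separate. *Smarcd2* had 0.24 ± 0.04 and *Smarcd1* -0.22 ± 0.06. The 3 genes encode alternative forms of 1 subunit, and the share of *Smarcd3* was 12.5% ± 0.824 in EV libraries and 5.48% ± 0.209 in KO libraries, that of *Smarcd2* 60.3% ± 1.64 and 71.2% ± 1.88.

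The ATPase gene *Smarca2* (BRM, chr19:26605115-26778321) counted 1025, 949.6, 1045 and 1006 in EV libraries and 495, 560.0, 529.5 and 496 in KO libraries (log2 fold change -0.95 ± 0.05, edgeR adjusted p = 8.6e-19), and its alternative *Smarca4* (BRG1) is not listed. *Smarcc1* (BAF155) and *Smarcc2* (BAF170), the scaffold pair, counted 4547 ± 97.7 and 3036 ± 90.0 in EV libraries and 5178 ± 74.7 and 2343 ± 74.7 in KO libraries. *Smarcc1* did not pass without TMM, but its share of the pair, 55.5% to 56.8% in EV libraries and 64.8% to 65.9% in KO libraries, is free of the scale. *Arid1a* and *Arid1b* encode mutually exclusive subunits of the BAF complex. *Arid1a* counted 2526, 2883, 2713 and 2724 in EV libraries and 3859, 4100.4, 3556 and 3852 in KO libraries, *Arid1b* 2109.8, 2405, 2441 and 2311 in EV and 1821, 2016, 1724 and 1847 in KO libraries, and the share of *Arid1a* went from 61.8% ± 0.840 to 74.2% ± 0.332. *Phf10*, for a subunit of the PBAF form, counted 598, 585, 535 and 516 in EV and 957, 1043, 1074 and 1081 in KO libraries (log2 fold change 0.90 ± 0.05, edgeR adjusted p = 1.1e-17), and *Dpf2* and *Dpf1*, for its BAF counterparts, are no members and had log2 fold changes of 0.63 and 1.35.

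The ISWI ATPases divided too. *Smarca5* (SNF2H) had 4795 ± 269 normalized counts in EV libraries and 6206 ± 100.3 in KO libraries. *Smarca1* (SNF2L) counted 122.9, 111, 101 and 99.8 in EV and 73.3, 56.5, 67.5 and 64.4 in KO libraries. Their log2 fold changes were 0.37 and -0.73, with 28.2% of the 50-base stretches of *Smarca5* found in other transcripts, and *Smarca5* made up 97.2% ± 0.155 of their summed FPKM in EV libraries and 98.7% ± 0.157 in KO libraries. *Smarcal1*, which repairs stalled replication forks, fell by 0.42 on the log2 scale.

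Of the 8 CHD remodelers 4 rose and 4 fell, and 2 rose and 4 fell without TMM, both close to the split of all genes (47.1% and 49.6%, and 32.3% and 49.8%). *Chd4*, the main ATPase of the NuRD complex that also holds histone deacetylases, counted 8315, 9517, 8859 and 8893 in EV libraries and 12405, 12382, 11603 and 11728 in KO libraries. Its alternative *Chd3* counted 3289.9, 3851, 3621 and 3708 in EV and 2898, 3009.5, 2595 and 2595 in KO libraries. With log2 fold changes of 0.44 ± 0.03 and -0.38 ± 0.04, *Chd4* went from 72.3% ± 0.409 to 82.0% ± 0.654 of the summed FPKM of *Chd3*, *Chd4* and *Chd5*. *Chd1*, which binds methylated H3 at active promoters, rose from 2861 ± 84.3 to 4268 ± 150.4 normalized counts (log2 fold change 0.58). *Chd6*, *Chd9* and *Chd2* had -0.67, -0.44 and -0.25, and *Chd5* and *Chd8* had 0.41 and 0.17 and did not pass without TMM.

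DNA methylation genes gave 2 further pairs. *Tet2* (chr3:133463679-133544390), which oxidises 5-methylcytosine, counted 164, 170.2, 210.1 and 182 in EV libraries and 90.1, 109, 81.5 and 78.4 in KO libraries (log2 fold change -1.02 ± 0.11, edgeR adjusted p = 4.9e-10). *Tet3*, with the same activity and a far higher level, counted 1894, 2074, 1929 and 1823 in EV and 2673, 2676, 2413 and 2510.4 in KO libraries (log2 fold change 0.41 ± 0.04), so *Tet2* held 10.1% ± 1.17 of their summed FPKM in EV libraries and 3.98% ± 0.452 in KO libraries. *Dnmt3a*, which methylates new sites, counted 1578, 1779, 1633 and 1665 in EV and 1164, 1207, 1120.0 and 1149 in KO libraries (log2 fold change -0.52 ± 0.04). *Dnmt1*, which copies methylation after replication, had 0.16 and did not pass without TMM, and its share beside *Dnmt3a* went from 87.0% ± 0.492 to 91.4% ± 0.0980. *Tet1* and *Dnmt3b* are not listed.

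Of the 16 PHD finger and ING genes 10 fell and 5 rose on either scale, where 49.6% of all genes fell and 47.1% rose with TMM and 49.8% and 32.3% without it. *Phf11d* (chr14:59347407-59365470) counted 300.05, 281, 254 and 276 in EV libraries and 108, 116, 141 and 74.7 in KO libraries (log2 fold change -1.34 ± 0.11, edgeR adjusted p = 4.0e-13). Its neighbour *Phf11b*, 6055 bases away, had 5.91, 14.4, 14.6 and 8.83 in EV and 2.09, 4.55, 1.87 and 7.47 in KO libraries, and with 47.0% of its 50-base stretches in other transcripts, chiefly *Phf11a*, its log2 fold change of -1.40 is uncertain. *Phf21a* (BHC80), which reads unmethylated H3 in a corepressor complex, had -0.51 and *Ing4*, of acetyltransferase complexes, -0.32, although another annotated gene on the same strand covers 34.9% of its exonic bases. *Phf5a*, a splicing factor subunit despite its name, rose from 1965 ± 26.7 to 2954 ± 55.5 normalized counts (log2 fold change 0.59), and *Phf7* had 0.60. The ARID proteins outside SWI/SNF divided as well, *Arid5a* at 0.63 ± 0.06 and *Arid5b*, the partner of the demethylase PHF2, at -0.29 ± 0.04, with *Arid5a* at 17.9% ± 0.484 and 29.2% ± 1.28 of their sum.

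**Figure D3:**
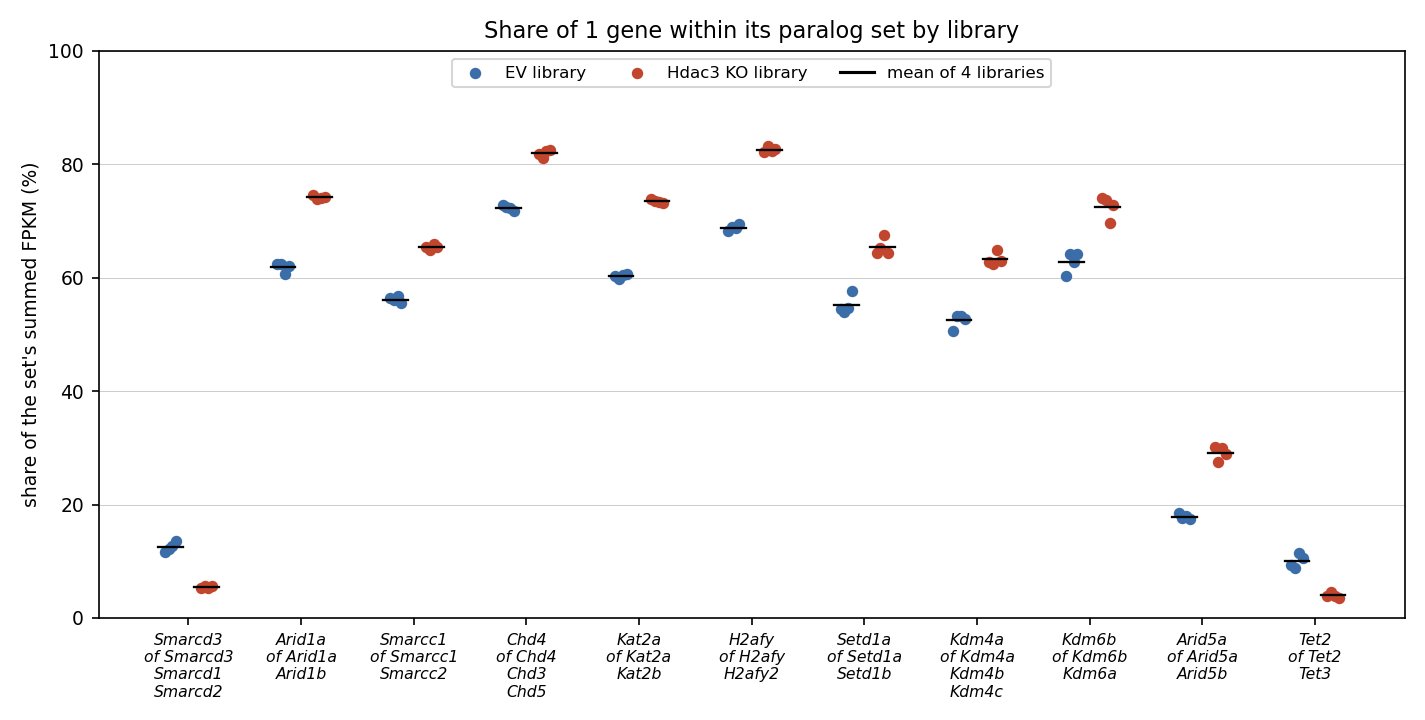
Share (%) of 1 gene in the summed FPKM of its listed paralogs in each of the 4 EV and 4 *Hdac3* KO libraries, with the genes of each set named under the axis and black bars for the means. The EV and KO libraries are apart for the gene shown from each of the 11 sets, as for *Kat2a* at 59.8% to 60.7% and 73.2% to 73.9%. These sets are a selection of the 21 with 2 or more listed genes. In 2 sets not shown the shares of both genes overlapped between EV and KO libraries. *Kdm3a* had 46.4% to 50.2% and 48.7% to 52.4% of the KDM3 genes, and *Phf1* 59.1% to 63.5% and 56.4% to 59.8% beside *Phf19*.

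Over 24 paralog sets, 21 had 2 or more members in the table, and 17 of these held both a member that rose and a member that fell. The 4 that did not were the HP1 genes, in which all rose, and the Polycomb chromobox genes, the KDM3 genes and the pair *Phf1* and *Phf19*, in which all fell. Without TMM 11 of the 21 held called members of both directions, since the members that rose did not pass in the sets of *Smarcc1*, *Dnmt1*, *Kdm5c*, *Kmt2a* with *Kmt2d*, *H2afy* and *H2afz*. As the table lists only changed genes, a set with 1 listed gene is not counted, and with nearly equal shares of genes higher and lower a mixed set is common. In the mixed sets of 2, the gene that rose was the one with the higher FPKM in EV libraries for *Kat2a*, *Smarca5*, *Smarcc1*, *Arid1a*, *Tet3*, *Dnmt1*, *Kdm6b*, *Setd1a*, *H2afy* and *H2afz*, of which *Smarcc1*, *Dnmt1*, *H2afy* and *H2afz* did not pass without TMM, and the one with the lower FPKM for *Arid5a* alone. In the whole class list without replication-dependent histones, the 48 members that rose had a median EV level of 23.4 FPKM and the 51 that fell 9.62 FPKM. The same medians were 17.8 and 9.37 FPKM for the 3895 and 4107 genes of the table that rose and fell.

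Levels covered a wide range, from 0.0678 FPKM for *Scml2* to 585 FPKM for *H2afz* in EV libraries, with a median of 10.9 FPKM. Below *H2afz*, *H3f3b* and *Phf5a* (122 ± 1.49 FPKM) came *Cbx3* (92.2 ± 1.18), *H2afx* (84.4 ± 1.57) and *Prmt1* (81.0 ± 2.59), of which *H2afx* and *Prmt1* have overlapping ranges of mean ± SD, and then *Chd4* (71.0 ± 3.72) and *Brd2* (70.2 ± 1.32), which do not differ beyond their spread. In *Hdac3* KO libraries *Cbx3* (119 ± 3.46) and *Brd2* (105 ± 3.06) stood above *Setd8* (94.2 ± 2.45) and *Prmt1* (92.8 ± 1.09), which do not differ beyond their spread. The 115 members took 1.25% to 1.304% of the reads in the table in the 8 libraries, and the ranges of the 2 groups overlapped.

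Other subunits of the same complexes, 135 genes chosen by role, were listed in 88 cases, of which 63 rose, 21 fell and 4 did not pass, with a median of 0.25. Without TMM 46 rose, 21 fell and 21 did not pass, where 32.3% of all genes rose and 49.8% fell, with a median of 0.13. NuRD, Sin3 and CoREST subunits rose in 7 of 10 listed cases on either scale, led by *Sap18* at 0.86, and *Rcor3*, of CoREST, fell most at -0.56. Partners of SWI/SNF, INO80 and ISWI remodelers rose in 9 of 14 (8 without TMM), with *Baz1a* at 0.98 and *Ruvbl2* at 0.79, and *Bcl7a*, a BAF subunit, fell by 0.94 on the log2 scale. Partners of PRC1 and PRC2 rose in 10 of 14, subunits of acetyltransferase complexes in 10 of 17, and subunits of H3K4 and H3K36 methyltransferase complexes in 7 of 12, where 47.1% of all genes rose, but without TMM in 3, 5 and 5.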

How the data were processed

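Members and gene lists were chosen with earlier results of these data known. Per the labels and the study's methods, RNA was extracted with the RNeasy Plus kit, sequenced on an Illumina instrument and aligned to mm10 with TopHat2 and Bowtie2, and the submitters' processing notes name CASAVA and DESeq 1.6.3. RNA selection, strandedness and annotation release are not given in the sources used here. The deposited table holds raw read counts per gene and library, the authors' FPKM values (counts scaled by gene length and by the library's total), the gene length as another deposited value, and the authors' own comparison (group means, log2 fold change, p-value and adjusted p-value). Of the comparison columns only the authors' adjusted p-value was read, to find that all 8278 listed genes lie under 0.05. The deposited lists of higher and lower genes were not used.

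Counts were tested in edgeR 4.0.16 (R 4.3.3) by the quasi-likelihood test of 4 *Hdac3* KO against 4 EV libraries, over all 8278 genes with Benjamini-Hochberg adjustment and a cutoff of 0.01, the study's own. Library sizes were the totals implied by counts, lengths and FPKM (15775327 to 22255684 reads), scaled by TMM. Normalized counts are counts divided by relative library size. Levels between genes and shares within paralog sets are FPKM. The script was tested on simulated data: of genes given a log2 change of 0.5, 98 of 105 were recovered, and 95 of 95 at 1. Only a small part of the genes was changed there, and none with the fewest reads. It therefore does not cover rarely read genes or a table in which nearly all genes change. The named genes were the 8 highest and 8 lowest members (cutoff passed, no overlap, mean of at least 100), the extremes of each class and the paralog sets, and members of the histone classes and others were named beyond that rule after their values were seen. A paralog set of that rule and some single genes are not reported here. Sequences are RefSeq promoter windows (GRCm38.p6), matched by symbol or synonym for 98 of 115 members. Overlaps came from GENCODE M21 (114 of 115 members found) and may differ from the annotation used for counting. Alternatives were DESeq2 1.42.0, 3 other scalings, a filter at a mean of 10 counts, protein-coding genes only, other cutoffs, a replicate block and leaving out each library.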

Additional observations from a re-analysis of the deposited data

Results flagged for a closer look

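In 15 of the 230 groups of 4 libraries, 1 for each member and condition, 1 library stood apart from the other 3, its gap to the nearest exceeding Dixon's 95% limit for 4 values. About 1 in 20 such groups, 11.5 here, is expected by chance. *Chd9* had 849 normalized counts in EV replicate 2 against 749 to 757 in the other 3, and its log2 fold change was -0.44 with and -0.40 without that library. *Scmh1* had 680.1 normalized counts in EV replicate 3 against 631 to 639 in the other 3, and its log2 fold change was -0.50 with and -0.47 without that library. *Scmh1* had 506 normalized counts in *Hdac3* KO replicate 4 against 439 to 445 in the other 3, and its log2 fold change was -0.50 with and -0.54 without that library. *Cbx7* had 379.6 normalized counts in EV replicate 4 against 334 to 339 in the other 3, and its log2 fold change was -0.39 with and -0.34 without that library. *Kdm2b* had 1036 normalized counts in EV replicate 2 against 905 to 927 in the other 3, and its log2 fold change was -0.45 with and -0.41 without that library. *Kdm2b* had 728 normalized counts in *Hdac3* KO replicate 3 against 675 to 679 in the other 3, and its log2 fold change was -0.45 with and -0.48 without that library. *Kdm1b* had 285 normalized counts in EV replicate 2 against 313 to 317 in the other 3, and its log2 fold change was -0.25 with and -0.29 without that library. *Kdm1b* had 281 normalized counts in *Hdac3* KO replicate 3 against 249 to 251 in the other 3, and its log2 fold change was -0.25 with and -0.29 without that library. *Kdm5a* had 2269 normalized counts in *Hdac3* KO replicate 2 against 2191 to 2193 in the other 3, and its log2 fold change was -0.18 with and -0.19 without that library. *Ehmt2* had 4752 normalized counts in EV replicate 1 against 5110.5 to 5134 in the other 3, and its log2 fold change was -0.26 with and -0.29 without that library. *Kmt2c* had 702 normalized counts in EV replicate 2 against 610.0 to 618 in the other 3, and its log2 fold change was 0.15 with and 0.19 without that library. *Setd2* had 1931 normalized counts in *Hdac3* KO replicate 2 against 1802 to 1824 in the other 3, and its log2 fold change was 0.20 with and 0.19 without that library. *Hist2h2be* had 36.6 normalized counts in *Hdac3* KO replicate 3 against 48.2 to 50.4 in the other 3, and its log2 fold change was -0.61 with and -0.51 without that library. *Hist2h2ac* had 20.9 normalized counts in *Hdac3* KO replicate 2 against 11.5 to 13.1 in the other 3, and its log2 fold change was 1.20 with and 0.96 without that library. *Hist1h4d* had 11.1 normalized counts in EV replicate 2 against 7.95 to 8.32 in the other 3, and its log2 fold change was 1.40 with and 1.52 without that library. EV replicate 2 was the library in 5 of the 15, and no fold change turned.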

How the results depend on the processing

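Scaling mattered most. On library totals without TMM 39 members were higher, 5 had a log2 fold change of at least 1, 7 of -1 or less, and the median of the members was 0.021. *Phf3*, *Brd1* and *H2afz* reversed there, at -0.062, -0.013 and -0.00105, none of them past the cutoff (adjusted p = 0.055, 0.73 and 0.97, edgeR). Leaving out 1 library at a time gave 54 to 59 members higher, 53 to 54 lower, 5 to 8 at or above 1, 2 to 4 at or below -1 and a median of 0.12 to 0.16. Calls were lost without 1 library for *Chd5*, *Phf11b*, *Brd1*, *Scml2*, *Setd6*, *Hist1h3e*, *Hist2h2ac* and *Sirt7*. Over 1738 values of single members and *Hdac3* under 15 alternatives, 1680 kept their direction and side of the cutoff, 48 lost and 7 gained it, the gains all being *Kmt2c*. *Phf11b*, *Scml2*, *Hist2h2ac*, *Sirt7*, *Kmt2a* and *Kmt2d* did not pass in DESeq2, and the cause was not tested. Under the filter at a mean of 10 counts 2 members had no fit.

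Replicate numbers are shared between the groups, but same-numbered libraries did not deviate together (correlations of -0.11, 0.12, -0.02 and -0.07 over 7182 genes), so they share only a number. With the replicate block 60 members were higher and 54 lower, 8 and 4 past the fold limits and the median 0.14, and 1 of 4 libraries correlated best with its own number. Depth limits the 13 members under 100 normalized counts in both groups, where a few reads move the fold change.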

Other observations

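Genes that deliver histones to replicating DNA were not members but lay beside them. *Npm1*, a nucleolar histone chaperone, had a log2 fold change of 0.64, *Ssrp1* and *Supt16*, the subunits of the FACT complex, had 0.50 and 0.41, and *Chaf1a* and *Chaf1b*, of the assembly factor CAF-1, had 0.47 and 0.18 (edgeR, each past an adjusted p of 0.01, *Chaf1b* not without TMM). Among replication genes *Cdc6*, which licenses origins, had 0.81, *Mcm10* 0.59 and *Rrm2*, a subunit of ribonucleotide reductase, 0.57. The subunits of the replicative helicase did not share a direction: *Mcm3*, *Mcm5* and *Mcm4* had 0.37, 0.23 and 0.19, while *Mcm6* and *Mcm7* had -0.38 and -0.15. *Taf5l*, of the SAGA complex in which *Kat2a* and *Kat2b* alternate, had 0.63, *Tada2b* 0.20 (not past the cutoff without TMM) and *Tada1* -0.56. Of the partners of the *Kat7* product *Jade1* had -0.59, *Jade2* 0.39 and *Jade3* 0.27 (not past the cutoff without TMM).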
